A study of Drosophila melanogaster with 4 samples.

Results

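The genes described here are 10 genes of the structures that join germ cells to each other and to the soma of the *Drosophila melanogaster* ovary: *hts*, *alpha-Spec*, *beta-Spec* and *par-1* of the fusome, *kel* and *cher* of the ring canals, *shg* and *arm* of adherens junctions, and *zpg* and *Inx2* of gap junctions. They were chosen by name, and all 10 matched a FlyBase identifier among the 17023 genes of the count tables. Poly(A) RNA was sequenced from ovaries dissected 2 to 3 days after eclosion. All flies carried UAS-Dcr2, which strengthens RNA interference, and nosGAL4, a driver active in germ cells. The hairpins were thus directed to the germline and not to the somatic cells, and the cells in which they acted were not measured here. In 2 libraries the hairpin targeted *bam*, the differentiation factor of germline stem cell daughters. In the other 2 it targeted *Nipped-A*, a scaffold protein of the Tip60 and SAGA acetyltransferase complexes. There was no unperturbed group, so each value below is read against the other knockdown only.

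In the female germline the daughters of a stem cell divide with incomplete cytokinesis and stay connected as a cyst. The fusome, a membranous organelle lined by a skeleton of spectrin and adducin, is a round body (the spectrosome) in stem cells and branches through the bridges of a growing cyst. The bridges become ring canals, actin-rich openings through which nurse cells feed the oocyte. Germ cells without *bam* function do not form cysts and accumulate as single cells with round spectrosomes. E-cadherin junctions hold stem cells to their niche and place the oocyte against follicle cells, and gap junctions between germ cells and soma are needed for early germ cells to survive and differentiate.

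The deposited tables held 21193517 to 47825006 counts per library, and 10245 genes had enough counts to be tested. *bam* was higher in the *Nipped-A* RNAi-labelled libraries, at 4.70 and 6.52 CPM (counts scaled for library size with TMM factors) in the *bam* RNAi libraries and 29.0 and 16.9 CPM in the others. *Nipped-A* itself went against its label, at 287 and 247 CPM in the *bam* RNAi libraries and 430 and 439 CPM in the *Nipped-A* RNAi-labelled libraries (log2 fold change 0.70 ± 0.14 SE, edgeR adjusted p = 0.0287). Its value was above 0 in all 15 alternative settings described below. The call ended under upper-quartile scaling (0.49, edgeR adjusted p = 0.0524) and with a trend over gene length removed (0.28 ± 0.11, edgeR adjusted p = 0.157). It also ended where that removal was joined to the replicate block. Every other setting that kept all libraries kept the call. Every direction below therefore refers to the labels, and a fold change is always the *Nipped-A* RNAi-labelled libraries over the *bam* RNAi libraries, with n = 2 per group. Nothing in the labels ties the libraries to separate flies, so the p-values cover the spread among these 4 samples, and that spread may be technical. Tissue markers showed germ cells and somatic cells in every library. The lowest value was 108 CPM for the germ cell marker *aub* and 164 CPM for the somatic gene *tj*. No gene of the 8 marker lists was at 0 counts in all 4 libraries. The fat body genes *Fbp1*, *Fbp2* and *Lsp1alpha* were at 0 in *Nipped-A* RNAi 2, and the gut gene *betaTry* was at 0 in *bam* RNAi 2.

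Of the 10 genes, *kel* alone passed the threshold of 0.05 on the adjusted p and was higher in the *Nipped-A* RNAi-labelled libraries, as 11.3% of all genes tested were; 19.6% of all genes tested were called in either direction. The fold changes of the 10 genes were small, between −0.52 and 0.62 on the log2 scale. The spectrin and adducin genes and *arm* had values below 0, and the other 6 genes values above 0. At 9 of the 10 genes the libraries of the groups did not overlap, 5 higher and 4 lower, where 68.9% of all genes tested were separated in this way (33.6% higher and 35.3% lower). The median log2 fold change was 0.39 for the 10 genes and −0.001 for all genes tested; with the trend over gene length described next removed, the medians were −0.016 and 0.049.

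**Figure D1:**
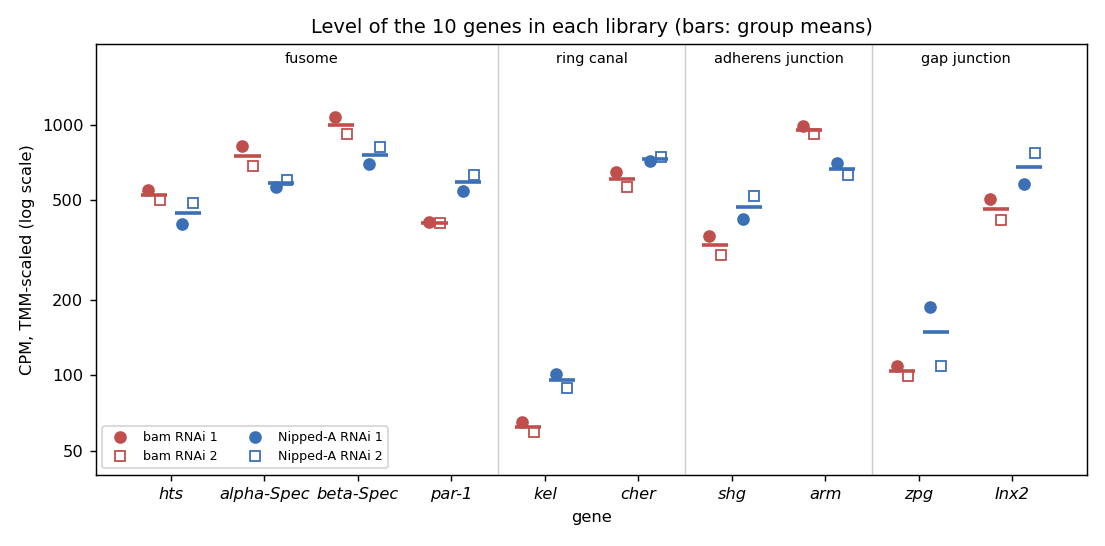
Level of each gene in each library in CPM on a log axis. Circles are replicate 1 and squares replicate 2, red marks *bam* RNAi and blue the *Nipped-A* RNAi-labelled libraries, and bars are group means; *zpg* is the gene whose groups overlap, at 98.8 to 109 CPM in red and 109 to 187 CPM in blue.

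Longer genes tended to have higher fold changes. Genes were split into quintiles by exonic length, and the median log2 fold change went from −0.38 in the shortest quintile to 0.36 in the longest, which begins at 3950 bases. Of the 10 genes 8 lie in the longest quintile; *arm*, with 3564 exonic bases, lies in the fourth, and *zpg*, with 1539, in the second. Among the 8 long genes, *par-1*, *kel*, *shg* and *Inx2* had values above the median of their quintile, *cher* was below it, and *hts*, *alpha-Spec* and *beta-Spec* were below 0. With the length trend removed library by library, *kel* was no longer called (0.33 ± 0.14, edgeR adjusted p = 0.163). Instead *hts*, *alpha-Spec*, *beta-Spec* and *arm* were called lower, 4 of 10 genes where 6.30% of all genes tested were called lower under that setting. Values with the trend removed are therefore given beside each gene, and whether length itself sets these differences was not tested.

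**Figure D2:**
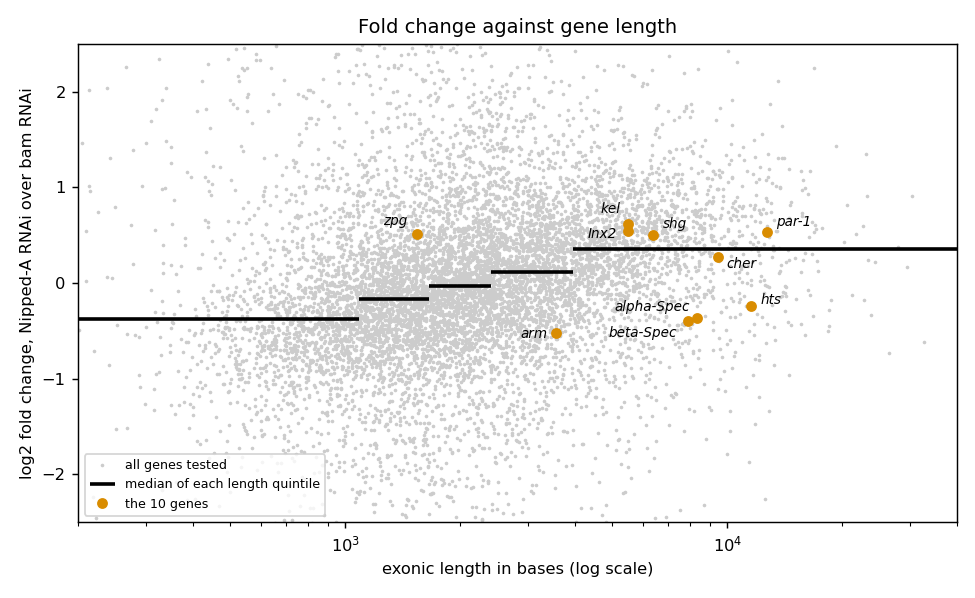
Log2 fold change against exonic length in bases (log axis) for all genes tested with a length (grey) and the 10 genes (orange). Black lines are the median of each length quintile, from −0.38 to 0.36; 821 of 10032 genes lie outside the axes, and *hts*, *alpha-Spec* and *beta-Spec* lie below the line of their quintile.

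The fusome skeleton genes had lower values together. *hts* encodes adducin-like proteins, of which one form lines the fusome and another coats ring canals. Reads were counted per gene, so the forms cannot be told apart. *hts* (FBgn0263391, dm6 chromosome 2R, 19397032 to 19424903) had 549 and 502 CPM in the *bam* RNAi libraries and 403 and 489 CPM in the *Nipped-A* RNAi-labelled libraries, or 525 ± 33.4 against 446 ± 60.7 (mean ± SD). The groups were separated, but by less than the gap within the *Nipped-A* RNAi-labelled libraries. The log2 fold change was −0.24 ± 0.15, which did not pass the test (edgeR adjusted p = 0.301). With the length trend removed it was −0.67 ± 0.11 (edgeR adjusted p = 0.0295).

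*alpha-Spec* and *beta-Spec* encode the subunits that assemble into the spectrin tetramer beneath membranes, in the fusome and in somatic epithelia alike. *alpha-Spec* (FBgn0250789, chromosome 3L, 1778485 to 1795328) had 822 CPM in *bam* RNAi 1 and 681 CPM in *bam* RNAi 2, against 565 and 603 CPM. *beta-Spec* (FBgn0250788, chromosome X, 17657372 to 17669371) stood at 1071 and 917 CPM against 696 and 815 CPM. Both genes were lower in each *Nipped-A* RNAi-labelled library than in either *bam* RNAi library. The log2 fold changes were nearly equal, at −0.36 ± 0.15 for *alpha-Spec* and −0.40 ± 0.15 for *beta-Spec*, and neither passed the test (edgeR adjusted p = 0.138 and 0.126). Upper-quartile scaling, which moved the median of all genes to −0.21, gave −0.57 (adjusted p = 0.0476) for *alpha-Spec* and −0.60 (adjusted p = 0.0503) for *beta-Spec* in edgeR. With the length trend removed the values were −0.73 ± 0.11 and −0.76 ± 0.12 (edgeR adjusted p = 0.0242 and 0.0246). *alpha-Spec* shares 130 exonic bases with *dlt* on the same strand, a gene with 5.77% as many counts and a log2 fold change of 0.91 ± 0.31 (edgeR adjusted p = 0.0956).

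*par-1* encodes a polarity kinase that lies on the fusome and directs microtubules in the cyst and the oocyte. Unlike the skeleton genes, *par-1* (FBgn0260934, chromosome 2R, 19456170 to 19485686) had more counts in the *Nipped-A* RNAi-labelled libraries, at 407 and 404 CPM against 543 and 633 CPM. The *bam* RNAi libraries were almost equal and both lay below the others. The log2 fold change of 0.54 ± 0.14, or 1.45-fold, missed the threshold narrowly (edgeR adjusted p = 0.0511). Among settings that kept every library, it was called with RLE size factors, library size alone, no low-count filter, robust moderation and DESeq2. The others did not call it. With the length trend removed it was 0.09 ± 0.12 (edgeR adjusted p = 0.632), so its size depends on how its 12693 exonic bases are treated. *par-1* and *hts* are neighbours on chromosome 2R, 31266 bases apart, with values of opposite sign. *par-1* also shares 193 exonic bases with *Tbcb* on the opposite strand, which had 8.14% as many counts and a log2 fold change of −0.11 ± 0.18 (edgeR adjusted p = 0.678).

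Of the ring canal genes *kel* rose in the *Nipped-A* RNAi-labelled libraries, and *cher* had a value above 0 that did not pass the test. *kel* encodes Kelch, which cross-links ring canal actin and serves as the substrate adaptor of a Cullin-3 ubiquitin ligase. *kel* (FBgn0001301, chromosome 2L, 18129884 to 18138083) had 64.7 and 59.4 CPM in the *bam* RNAi libraries and 101 and 89.2 CPM in the others, or 62.1 ± 3.73 against 95.3 ± 8.58. It was the least abundant of the 10 genes, from 1394 to 4979 counts per library, and the groups were well separated. It rose 1.54-fold (log2 fold change 0.62 ± 0.15, edgeR adjusted p = 0.0472). The call was kept with RLE size factors, library size alone, no low-count filter, the 1 CPM filter, DESeq2 and robust moderation. It ended under upper-quartile scaling (edgeR, 0.41, adjusted p = 0.0890), limma-voom (0.62, adjusted p = 0.0514) and the replicate block (edgeR, 0.62, adjusted p = 0.0615). Removal of the length trend, with or without the block, also ended it. Without *bam* RNAi 1 the value was 0.70, and without *bam* RNAi 2 it was 0.56. A fit without 1 library leaves a lone library on that side, which is assumed to vary like the pair that remains. No call is therefore read from such fits here.

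*cher* encodes filamin, an actin cross-linker that builds the outer rim of ring canals and is also made in follicle cells and muscle. *cher* (FBgn0014141, chromosome 3R, 17091533 to 17125389) stood at 645 and 564 CPM in the *bam* RNAi libraries and at 717 and 741 CPM in the others. The libraries labelled *Nipped-A* RNAi were close together and above both others. The log2 fold change of 0.27 ± 0.13 did not pass the test (edgeR adjusted p = 0.202), and it turned to −0.12 ± 0.11 with the length trend removed (edgeR adjusted p = 0.465). *cher* shares 406 exonic bases with *cal1* on the opposite strand. *cal1* rose by 1.49 ± 0.22 (edgeR adjusted p = 0.0173) and had 16.2% as many counts as *cher*; the strand setting of the counting is not given in the sources used here, so the part of *cal1* reads in *cher* is unknown.

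The adherens junction genes had values of opposite sign. *shg* encodes E-cadherin, and *arm* encodes beta-catenin, which binds the cadherin tail and also carries the Wnt signal. *shg* (FBgn0003391, chromosome 2R, 21049654 to 21057197) had 361 and 302 CPM in the *bam* RNAi libraries and 422 and 518 CPM in the *Nipped-A* RNAi-labelled libraries. *arm* (FBgn0000117, chromosome X, 1891401 to 1900646), the gene with the most counts per exonic base, was at 991 and 922 CPM against 702 and 632 CPM. The groups were separated at both genes, in opposite directions. *shg* had a log2 fold change of 0.50 ± 0.17 and did not pass the test (edgeR adjusted p = 0.0918). *arm* had −0.52 ± 0.13, or 1.43-fold lower, with an adjusted p of 0.05003 by edgeR, just outside the threshold.

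*arm* was negative in all 15 alternative settings, from −0.73 to −0.38. Among settings that kept every library, upper-quartile scaling, the 1 CPM filter, DESeq2 and robust moderation called it lower. So did removal of the length trend, with or without the replicate block, and the others did not. *shg* was positive in all 15, from 0.18 to 0.65. Of the settings that kept every library, DESeq2 alone called it (adjusted p = 0.00952). With the length trend removed *shg* was at 0.18 ± 0.14 and *arm* at −0.67 ± 0.11 (edgeR adjusted p = 0.405 and 0.0277). *arm* shares 82 exonic bases with *mRpL16* on the opposite strand. That gene fell by 0.82 on the log2 scale (edgeR adjusted p = 0.0320) and had 5.80% as many counts as *arm*.

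The gap junction genes encode innexins, the channel proteins of invertebrate gap junctions. *zpg* is the innexin of germ cells, and *Inx2* is made in the somatic cells that face them. *zpg* (FBgn0024177, chromosome 3L, 6604366 to 6606032) had 109 and 98.8 CPM in the *bam* RNAi libraries and 187 and 109 CPM in the *Nipped-A* RNAi-labelled libraries. Its groups overlapped, because *Nipped-A* RNAi 2 lay at the *bam* RNAi level. The log2 fold change was 0.51 ± 0.27 (edgeR adjusted p = 0.225). It was 0.91 without *Nipped-A* RNAi 2 and 0.06 without *Nipped-A* RNAi 1, so its size rests on library 1. The spread in either of these fits comes from the *bam* RNAi pair alone, so no test is drawn from them.

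The gap of *zpg* between the *Nipped-A* RNAi-labelled libraries, library 2 over library 1, was −0.78 on the log2 scale, the widest of the 10 genes. Over the same libraries the summed CPM of the 10 growing cyst and oocyte markers matched differed by −0.74 on the log2 scale, and that of the 10 germ cell markers matched by −0.16. *Inx2* differed between these libraries in the other direction, by 0.41. The part of germ cell content in the *zpg* values was not tested.

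*Inx2* (FBgn0027108, chromosome X, 6998672 to 7004151) stood at 506 and 417 CPM in the *bam* RNAi libraries and at 579 and 771 CPM in the others. Both *Nipped-A* RNAi-labelled libraries were above both *bam* RNAi libraries. The log2 fold change of 0.55 ± 0.19 did not pass the test (edgeR adjusted p = 0.103), and with the length trend removed it was 0.26 ± 0.17 (edgeR adjusted p = 0.336). For *zpg*, a short gene, removal of the trend raised the value to 0.69 ± 0.26, still short of the threshold (edgeR adjusted p = 0.133).

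**Figure D3:**
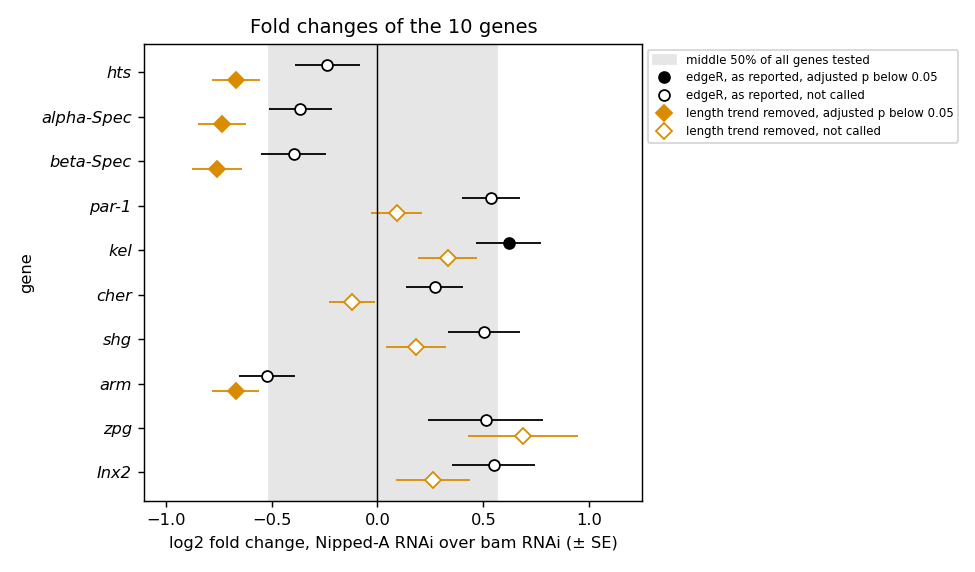
Log2 fold change with its standard error for each gene as reported (black circles) and with the length trend removed (orange diamonds). Filled symbols have an adjusted p below 0.05 and the grey band holds the middle 50% of all genes tested; *kel* is filled as reported, and *hts*, *alpha-Spec*, *beta-Spec* and *arm* are filled with the trend removed.

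Ratios between partner genes were taken within each library, where scaling to library size cancels out. With 2 libraries against 2, the exact permutation test used for the ratios cannot give a p below 0.333 and so calls none of the 6. Each difference of mean log2 ratios is therefore given with its SE. The spectrin subunits kept a nearly constant ratio: *alpha-Spec* to *beta-Spec*, in counts per exonic kb, was 0.727 and 0.703 in the *bam* RNAi libraries and 0.768 and 0.701 in the others, and the groups overlapped (0.04 ± 0.07 on the log2 scale). *hts* to *alpha-Spec* was 0.483 and 0.533 against 0.516 and 0.586, also with overlap (0.12 ± 0.12).

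*shg* to *arm* stood at 0.203 and 0.183 in the *bam* RNAi libraries and 0.334 and 0.457 in the *Nipped-A* RNAi-labelled libraries. There was no overlap, and the mean log2 ratio was higher by 1.02 ± 0.24 (2.03-fold; exact permutation p = 0.333, two-sided, the smallest possible). *par-1* to *alpha-Spec* was 0.326 and 0.390 against 0.632 and 0.689, higher by 0.89 ± 0.14 on the log2 scale, again without overlap (exact permutation p = 0.333). The order of these differences is not resolved: without *bam* RNAi 2 they were 0.95 for *shg* to *arm* and 1.02 for *par-1* to *alpha-Spec*, and without *Nipped-A* RNAi 2 they were 0.80 and 0.83. *kel* to *cher* was 0.173 and 0.181 against 0.244 and 0.207, a difference of 0.34 ± 0.12 without overlap (exact permutation p = 0.333).

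The ratio of the germline to the somatic innexin showed no common direction. *zpg* to *Inx2* was 0.767 and 0.844 in the *bam* RNAi libraries, and in the *Nipped-A* RNAi-labelled libraries it was 1.15 in library 1 and 0.503 in library 2, on either side of both others (−0.08 ± 0.60). These levels depend on the length used, since *Inx2* has 5480 exonic bases and 1101 coding bases while *zpg* has 1539 and 1101. Per coding base the ratio was 0.216, 0.237, 0.323 and 0.141 in the same order.

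**Figure D4:**
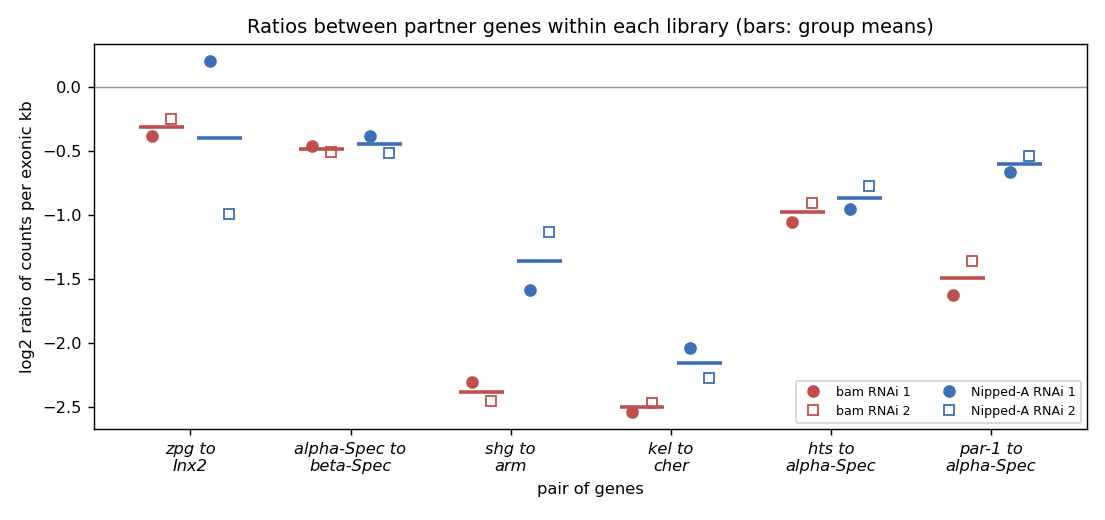
Log2 ratio of counts per exonic kb for 6 pairs of genes in each library, with circles for replicate 1, squares for replicate 2 and bars for group means. *shg* to *arm*, *kel* to *cher* and *par-1* to *alpha-Spec* have blue points (labelled *Nipped-A* RNAi) above both red points (*bam* RNAi), and the *zpg* to *Inx2* points in blue lie far apart.

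Levels were compared between genes in CPM per exonic kb. The order depends on the length used, since *Inx2* has 1101 coding bases of 5480 exonic bases and *arm* has 2529 of 3564. In the *bam* RNAi libraries *arm* stood first at 268 ± 13.8, followed by *beta-Spec* at 126 ± 13.8, *alpha-Spec* at 90.1 ± 11.9, *Inx2* at 84.2 ± 11.5 and *zpg* at 67.6 ± 4.75 CPM per kb. Then came *cher* at 64.1 ± 6.11, *shg* at 51.8 ± 6.47, *hts* at 45.6 ± 2.90, *par-1* at 31.9 ± 0.199 and *kel* at 11.3 ± 0.682 CPM per kb. The neighbours *alpha-Spec* and *Inx2*, *zpg* and *cher*, and *shg* and *hts* overlapped between libraries, and the other neighbours did not.

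In the *Nipped-A* RNAi-labelled libraries *arm* was again first at 187 ± 13.9 CPM per kb and *kel* again last at 17.4 ± 1.57 CPM per kb. *Inx2* came next to *arm* at 123 ± 24.7, and *zpg* at 96.2 ± 35.9, *beta-Spec* at 95.7 ± 10.6, *cher* at 77.3 ± 1.84, *shg* at 73.4 ± 10.7 and *alpha-Spec* at 70.0 ± 3.24 CPM per kb followed. *par-1* at 46.3 ± 4.97 stood above *hts* at 38.7 ± 5.27 CPM per kb, the reverse of their order in the *bam* RNAi libraries. Overlaps between neighbours joined *Inx2*, *zpg* and *beta-Spec*, and also *cher*, *shg* and *alpha-Spec*. *zpg*, at 121.5 and 70.8 CPM per kb, also overlapped every gene of the second group, so its place is not resolved. Nor is that of *shg* beside *cher* and *alpha-Spec*. *Inx2* and *beta-Spec* did not overlap each other or the second group, and *cher* did not overlap *alpha-Spec*.

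Other genes of these structures were taken from 4 lists. Of 16 tested genes of the spectrin skeleton and fusome, 5 rose and 0 fell, where 11.3% of all genes tested rose and 8.31% fell; 8 had an unadjusted p below 0.05 in edgeR, as had 38.3% of all genes tested. The list's median log2 fold change was 0.34. *tral*, a partner of translational repressors in germline granules, rose from 519 and 529 CPM to 1847 and 1315 CPM (1.59 ± 0.20, edgeR adjusted p = 0.0135). *CycA*, a mitotic cyclin that gathers on the fusome during cyst divisions, rose from 223 and 232 CPM to 878 and 531 CPM (1.63 ± 0.26, edgeR adjusted p = 0.0185).

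The other rises in that list were smaller. *par-6*, a polarity adaptor, rose by 0.55 ± 0.13, the spectraplakin gene *shot* by 0.91 ± 0.22 (edgeR adjusted p = 0.0416 and 0.0453), and the dynein heavy chain gene *Dhc64C* also rose. With the length trend removed *tral* (1.38) and *CycA* (1.55) were still called (edgeR adjusted p = 0.0200 and 0.0244) and the other 3 were not, nor were they under upper-quartile scaling. *par-6* kept most of its size (0.46, edgeR adjusted p = 0.0578), while *shot* and *Dhc64C* were at 0.38 and 0.39 (edgeR adjusted p = 0.0832 and 0.314) where they had been at 0.91 and 0.82. *kst*, the heavy beta spectrin of epithelia, had 296 and 268 CPM against 359 and 543 CPM and *Ank*, the ankyrin that binds spectrin, 586 and 587 against 624 and 734 CPM. Neither passed the test (0.68 ± 0.22 and 0.21 ± 0.14; edgeR adjusted p = 0.0877 and 0.311). Both values have the sign opposite to that of *beta-Spec*, but with the length trend removed *kst* was at 0.21 and *Ank* at −0.11, the sign of *beta-Spec*, and upper-quartile scaling put *Ank* at 0.0027.

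Of 24 tested genes of ring canals and nurse cell actin, 3 rose and 1 fell, or 12.5% and 4.17% beside the 11.3% and 8.31% of all genes tested. The list's median was 0.09. Its groups were separated higher at 8 genes and lower at 7, where 33.6% of all genes tested were separated higher and 35.3% lower. *sn*, the fascin that bundles nurse cell actin, rose from 52.7 and 48.2 CPM to 162 and 123 CPM (1.50 ± 0.18, edgeR adjusted p = 0.0134). The Tec kinase gene *Btk* and the Src kinase gene *Src64B*, both needed for ring canal growth, rose by 1.01 ± 0.23 and 0.50 ± 0.13 (edgeR adjusted p = 0.0385 and 0.0479). *Arpc1*, an Arp2/3 complex subunit, went from 190 and 196 CPM to 124 and 138 CPM and fell (−0.56 ± 0.13, edgeR adjusted p = 0.0402). Of these 4 genes *sn* was still called with the length trend removed (1.36 ± 0.16, edgeR adjusted p = 0.0163). *Arpc1* was then at −0.43, *Btk* at 0.64 and *Src64B* at 0.23 (edgeR adjusted p = 0.0868, 0.111 and 0.205), and under upper-quartile scaling *Btk* and *Src64B* also lost their calls (0.80 and 0.29, edgeR adjusted p = 0.0516 and 0.134). *Cul3*, the cullin that works with Kelch, had 200 and 216 CPM against 221 and 230 CPM, a log2 fold change of 0.12 ± 0.13 (edgeR adjusted p = 0.519) that turned to −0.17 with the length trend removed and to −0.09 under upper-quartile scaling.

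Of 13 tested adherens junction genes, 1 rose and 1 fell, each 7.69% of the list and below the 11.3% and 8.31% of all genes tested; the median was 0.14. *Vinc*, the vinculin that binds junctional actin, fell from 310 and 310 CPM to 224 and 190 CPM (−0.58 ± 0.14, edgeR adjusted p = 0.0441). *ed*, an adhesion molecule of epithelia, rose from 263 and 212 CPM to 372 and 362 CPM (0.63 ± 0.15, edgeR adjusted p = 0.0453), a call that ended under upper-quartile scaling and with the length trend removed. *alpha-Cat*, the link from *arm* to actin, had 307 and 293 CPM against 330 and 346 CPM (0.17 ± 0.12, edgeR adjusted p = 0.344), and turned to −0.04 under upper-quartile scaling. Thus the 3 core genes of the cadherin complex, *shg*, *alpha-Cat* and *arm*, had fold changes of 0.50, 0.17 and −0.52, of which none passed the test.

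Of the other 6 innexin genes 4 could be tested, and edgeR called 0 of them as reported. Of these 4, 1 had an unadjusted p below 0.05 and 1 was called by DESeq2. *ogre* had 284 and 275 CPM against 171 and 218 CPM (−0.52 ± 0.16), and *shakB* had 77.8 and 76.0 against 41.6 and 67.4 CPM (−0.50 ± 0.26). With the length trend removed both were called lower, at −0.71 and −1.005 (edgeR adjusted p = 0.0497 and 0.0395). Upper-quartile scaling also called *ogre* lower (−0.73, edgeR adjusted p = 0.0361), but not *shakB* (−0.70, edgeR adjusted p = 0.111). *Inx3* and *Inx7* were called in neither setting. *Inx3* had 305 and 289 CPM against 321 and 449 CPM (0.38 ± 0.19), and *Inx7* had 50.8 and 47.9 against 49.3 and 67.9 CPM (0.25 ± 0.21). Each of these 4 had more CPM in *Nipped-A* RNAi 2 than in *Nipped-A* RNAi 1, as did *Inx2*, while *zpg* had fewer. *Inx6* had 0 counts in all 4 libraries and *Inx5* was below 0.2 CPM in each.

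**Figure D5:**
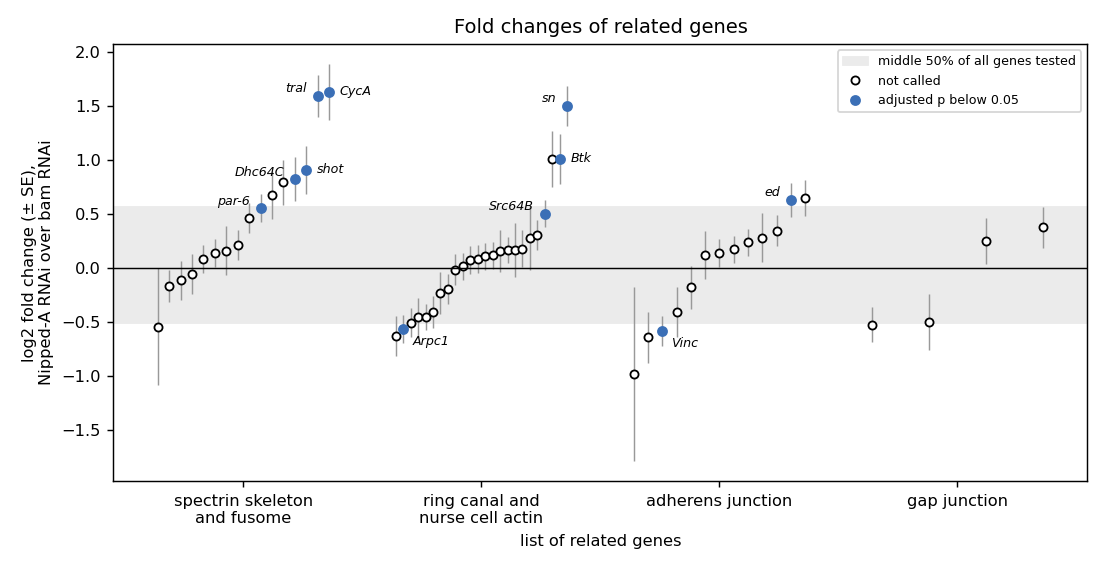
Log2 fold change with its standard error for the tested genes of the 4 related lists, ordered by value within each list. Filled blue points have an adjusted p below 0.05 and carry their names, and the grey band holds the middle 50% of all genes tested; the rises of *tral*, *CycA* and *sn* stand at about 1.5, and no gap junction gene is filled.

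Markers of several cell types moved between the groups. In bulk ovaries, fewer cells of a type and less RNA per cell cannot be told apart. Of all genes tested 11.3% rose and 8.31% fell, to be read beside the counts of each marker list here and below. Among the growing cyst and oocyte markers 9 of 10 rose. Their summed level was 748 to 876 CPM in the *bam* RNAi libraries and 2250.3 to 3759 CPM in the others. Of the germ cell markers 4 of 10 rose (*del*, *tud*, *nanos* and *ovo*), with sums over the list of 1669 to 1789.8 against 2207 to 2467 CPM. Groups in that list were separated higher at 5 genes and lower at 5, where 33.6% of all genes tested were separated higher and 35.3% lower. The list's median log2 fold change was 0.09, and *aub* was at −0.63 (edgeR adjusted p = 0.0520). Of the follicle cell markers 3 of 10 rose and 2 fell, with sums of 1259 to 1386 against 1441 to 1485 CPM.

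Muscle sheath markers, of a tissue that also makes filamin and spectrin, fell at 8 of 11 genes, from a sum of 28557 to 28903 CPM to 8781 to 11746 CPM. Hemocyte markers fell at 5 of 8 genes and rose at 1, from 10715 to 12162 CPM to 5013 to 5172 CPM. Most of these sums came from *Ppn*, *Col4a1*, *Pxn* and *vkg*, at means of 3550, 2833, 2440 and 1769 CPM in the *bam* RNAi libraries. *Hml* and *eater* had values below 0 (−0.54 and −1.09) that did not pass the test (edgeR adjusted p = 0.0718 and 0.0609). The gene of this list that rose was *srp* (0.70 ± 0.15, edgeR adjusted p = 0.0331). Hemocyte content itself was not measured. Cap and escort cell markers, of the niche that uses E-cadherin junctions, fell at 2 of 9 tested genes, where 8.31% of all genes tested fell. Their sums were 385 to 425 CPM in the *bam* RNAi libraries and 254 to 352 CPM in the others. Fat body markers rose at 2 of 8 genes and fell at 4, with sums of 1133 to 1186 against 1609.8 to 1978 CPM. Of the 2 that rose, *apolpp* went from a mean of 456 to 1283 CPM and *Lsd-1* from 46.4 to 87.6 CPM. The 4 that fell, *Fbp1*, *Fbp2*, *Lsp1alpha* and *Lsp1gamma*, had means of 66.8, 27.6, 13.7 and 26.5 CPM in the *bam* RNAi libraries. In the others their means were 0.377, 0.112, 0.305 and 0.690 CPM. Gut markers rose at 9 of 10 genes, from 16.8 to 18.6 CPM to 1114 to 4338 CPM. Apart from *zpg*, most of the genes described here are known from somatic cells too, and the part of these shifts in their fold changes was not tested.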

How the data were processed

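Each of the 4 libraries has a table of raw counts, which the authors deposited. Per the submitters' processing notes, the build was dm6 and the tools were HISAT2 2.1.0, featureCounts 1.6.0.4 and edgeR 3.16.5; libraries were directional, per the labels' protocols. Not given in the sources used here: the annotation, the strand setting and what was done with multiply mapped reads. Symbols, positions and lengths came from Ensembl release 115 on dm6 coordinates, which named 16647 of 17023 genes. Each table names genes only.

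Here genes were kept with filterByExpr, scaled with TMM and tested over the whole table with the edgeR 4.0.16 quasi-likelihood test (R 4.3.3, two-sided, Benjamini-Hochberg, threshold 0.05). Standard errors were derived from the fold change and the F statistic. Levels per kb divide scaled CPM by exonic length. To remove the length trend, a lowess curve of log2 CPM deviations on log10 exonic length (span 0.5, prior count 2) entered as an offset per library. Alternatives also covered DESeq2 1.42.0, limma-voom (limma 3.58.1), scaling, filters, robust moderation, the replicate block and each library left out. The steps were also run on simulated counts with known changes, and no result of that run is given here. Those counts had no trend over gene length and the same spread in both groups. The run therefore cannot check the removal of the length trend in these data. Replicates differed beyond counting error (chi-square per gene 21.4 and 226).

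The 10 genes and all lists were chosen with earlier results of these data known. Genes named from lists are the called members, with values for up to 4 with the smallest adjusted p, and all tested innexins. *kst*, *Ank*, *Cul3* and *alpha-Cat*, partners of the 10 genes, were added after their values were seen. So were genes with overlapping exons and single genes of the hemocyte, fat body and gut lists. Of the listed genes 5 had no match by symbol. No sequence is shown, because no sequence table was used here.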

Additional observations from a re-analysis of the deposited data

How the results depend on the processing

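The count of the 10 genes called was 1 as reported. It was 2 with RLE size factors, library size alone, no low-count filter, upper-quartile scaling or a 1 CPM filter. Under these settings 20.1%, 19.9%, 18.4%, 23.5% and 24.3% of all genes tested were called, in that order. The count was 3 with robust moderation (where 21.3% of all genes tested were called) and 5 with DESeq2 (where 34.4% were). With upper-quartile scaling the 2 were *alpha-Spec* and *arm*, both lower, and *kel* was not called. The count was 4, all lower, with the length trend removed, alone or together with the replicate block. There 14.2% and 12.8% of all genes tested were called, with 6.30% and 4.92% lower. The count was 0 with limma-voom and with the replicate block alone, where 16.7% and 17.7% of all genes tested were called. In those fits 6 and 4 of the 10 had an unadjusted p below 0.05. The list counts given below carry no shares of their own. They are to be read against the shares in this paragraph and the 19.6% of all genes tested called as reported. For the 10 genes the count also changed with a library left out. Without *Nipped-A* RNAi 1 or 2 it was 5 and 7, where 36.2% and 38.8% of all genes tested were called and the spread comes from the *bam* RNAi pair alone. Leaving out 1 library moved it between 0 and 7.

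Over 15 alternatives 9 of the 10 genes kept their sign; *cher* turned to −0.12 with the length trend removed, with or without the replicate block. All genes called numbered 2004 (1153 higher, 851 lower), and 3521 (2106 higher, 1415 lower) with DESeq2; lower calls numbered 1556 with upper-quartile scaling, where 853 were higher. With the replicate block and the length trend removed the calls were 1310, of which 504 lower. Without either *bam* RNAi library edgeR called 0 genes, with 2373 and 1837 at an unadjusted p below 0.05, and without *Nipped-A* RNAi 1 or 2 it called 3886 and 4215. Higher calls then ranged from 0 to 2511 and lower calls from 0 to 1771.

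Called genes of the spectrin and fusome list numbered 5, but 2 with upper-quartile scaling, 8 with DESeq2, 3 with limma-voom and 2 with the length trend removed, also with the block (0 to 9 with a library left out). The ring canal list had 4, but 7 with upper-quartile scaling or the 1 CPM filter, 9 with DESeq2 and 2 with the trend removed, also with the block (0 to 12). The adherens list had 2, but 1 with upper-quartile scaling or the replicate block and 5 with DESeq2 (0 to 6). The gap junction list had 0, but 1 with upper-quartile scaling or DESeq2 and 2 with the trend removed, also with the block (0 to 3).

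The replicate numbers are no known pairing: deviations from the group means correlated at −0.08 between the groups across genes, and the block moved the count of all genes from 2004 to 1813. The *zpg* to *Inx2* difference, −0.08 on the log2 scale, ranged from −0.68 to 0.51 with a library left out. Where a setting changed a call, the cause was not tested. Depth gave each of the 10 genes at least 1394 counts in every library.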
